A study of Mus musculus with 16 samples.

Results

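The genes described here were hypoxia targets and genes of glycolysis, 37 in all, taken by name from the noncontrol probes of the array: 16 glycolytic enzymes, 6 transporters or regulators of glycolytic flux, 14 other targets of the hypoxia-inducible factors (HIF), and Hif1a, which encodes the oxygen-regulated subunit of HIF-1. Of these 37, 36 could be tested, among 29233 genes tested in all. Carbonic anhydrase 9 (Ca9), a cell-surface enzyme and HIF target, was not well above background on any of the 16 arrays. For each of the other 36, the brightest probe was well above background on all 16 arrays.

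The samples were mouse embryonic stem cells (mESCs) of the line CGR8-Myh6-GFP, which expresses green fluorescent protein (GFP) from the promoter of the cardiac myosin gene Myh6, and all were in cardiac differentiation in multiwell plates when treatment began on day 4. At 6 h or 24 h, RNA was taken from cells given the vehicle DMSO (n = 2 at each time), WS1442 at 0.25 mg/ml (n = 3) or the MeOH eluate at 0.1 mg/ml (n = 3). WS1442 is an extract that ethanol draws from the leaves and flowers of hawthorn, dried, and the MeOH eluate is a fraction of it rich in oligomeric procyanidins. The doses of the 2 preparations differed, and a sample stands for 1 RNA preparation on 1 one-colour Agilent array. The study's methods describe its data in general as from independent biological replicates, and the labels number the replicates of these groups without saying that they came from separate cultures. The p-values measure the spread between these samples. All 6 h arrays shared 1 slide and all 24 h arrays another, so that slide and time cannot be told apart in the levels, and each treatment was compared with the DMSO arrays of its own slide.

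HIF is a pair of transcription factor subunits. When oxygen and iron are plentiful, the prolyl hydroxylases encoded by the Egln genes mark the alpha subunit for destruction, and when the hydroxylases slow down the subunit accumulates and binds a short DNA core near its target genes. The targets raise glucose uptake and glycolysis, export lactate, hold pyruvate back from the mitochondria, clear mitochondria by autophagy, modify collagen and stimulate vessels, and they include Egln1 and Egln3 themselves, a negative feedback. Pluripotent cells are known for a high rate of glycolysis, and heart muscle for oxidative metabolism.

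Between 55.1% and 63.0% of the spots of an array were well above background, no spot was saturated, and the RNA integrity numbers ran from 8.6 to 10. Of the 8 cardiac markers looked for, 7 could be tested, and Myh6 was the one not well above background on every array of any group. All 8 pluripotency markers were measured, with summed signals of 13.86 to 14.76 on the log2 scale. Values below are log2 signals after quantile normalization. Differences are differences of group means on that log2 scale, with the standard error (SE) of the limma fit and p-values adjusted by Benjamini-Hochberg over all genes tested, and "rose" or "fell" is written where that adjusted p was under 0.05.

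After 6 h, no member fell with either preparation, and members rose in all 3 classes, among them enzymes of glycolysis, the glucose transporter Slc2a1, the mitophagy receptors Bnip3 and Bnip3l, Ndrg1 and Adm. With WS1442, 11 of 36 members rose, against 4.14% of all genes that rose and 1.45% that fell. With the MeOH eluate, 21 of 36 rose, against 8.7% of all genes that rose and 8.39% that fell. The median difference over the 36 members was 0.24 for WS1442 and 0.30 for the MeOH eluate, where the medians over all genes were -0.01 and 0.00. Both comparisons used the same DMSO arrays, and their values are given side by side. In bulk RNA, fewer cells of a type and less RNA per cell cannot be told apart.

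**Figure D1:**
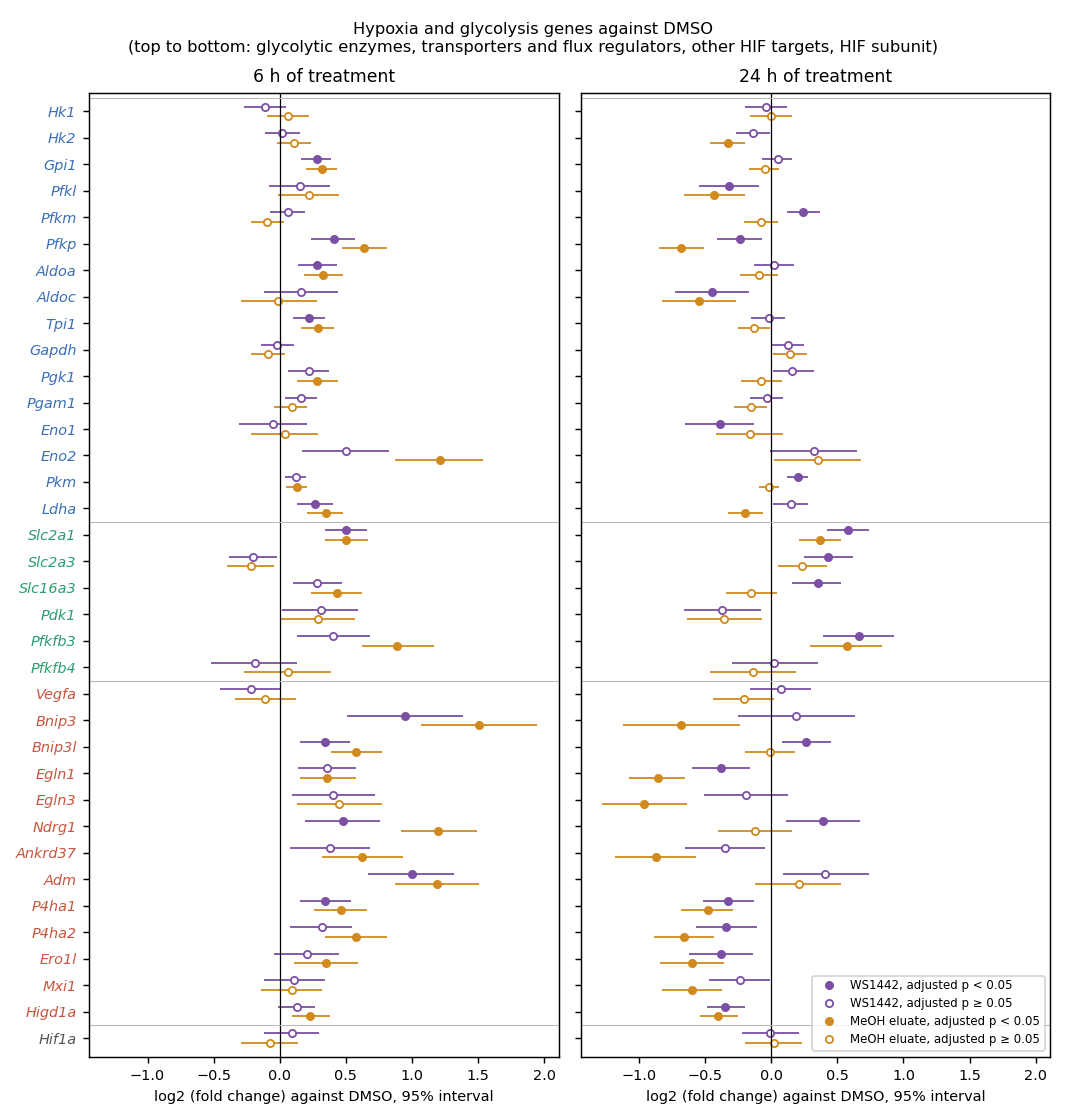
Log2 difference from DMSO (horizontal axis) of each tested member (vertical axis, by class) at 6 h and 24 h for WS1442 and the MeOH eluate, with 95% confidence intervals of the fit. At 6 h the filled points, which passed the adjusted p, all lie to the right of 0, up to 1.51 for Bnip3, and at 24 h they lie on both sides, down to -0.96 for Egln3.

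The glycolytic enzymes moved by small amounts. At 6 h, 5 of 16 rose with WS1442 and 8 of 16 with the MeOH eluate, with class medians of 0.16 and 0.18. Pfkp, a phosphofructokinase of the committed step, measured 10.52 and 10.76 in the DMSO samples at 6 h, 10.99, 11.01 and 11.13 with WS1442, and 11.23, 11.33 and 11.27 with the MeOH eluate. Every treated sample lay above both controls, and the 3 MeOH eluate samples lay above the 3 WS1442 samples. The rises were 0.41 (SE 0.08, adjusted p = 0.0096) and 0.64 (SE 0.08, adjusted p = 7.55e-05). Gpi1, the isomerase of the second step of glycolysis, measured 13.99 and 14.03 in DMSO, 14.32, 14.21 and 14.33 with WS1442, and 14.30, 14.32 and 14.36 with the MeOH eluate. Its groups of treated samples overlapped each other and not the controls, with rises of 0.28 (SE 0.05, adjusted p = 0.0096) and 0.32 (SE 0.05, adjusted p = 0.00102).

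Eno2, the neuronal enolase, was the glycolytic enzyme with the largest difference at 6 h, from 4.62 and 4.79 in DMSO to 5.90, 6.09 and 5.74 with the MeOH eluate. That rise was 1.21 (SE 0.15, adjusted p = 0.000112), or more than 2-fold. Eno2 had the lowest signal of the tested members. Over all genes, 615 were past 2-fold with limma's unadjusted p under 0.05 in this comparison, and 81 with normexp background correction. With WS1442 it measured 5.13, 5.11 and 5.38, which lay above the controls and below the MeOH eluate samples, and the difference of 0.50 missed the threshold (adjusted p = 0.0754). Aldolase Aldoa (0.28 and 0.33), triosephosphate isomerase Tpi1 (0.22 and 0.29) and lactate dehydrogenase Ldha (0.27 and 0.35) rose with WS1442 and with the MeOH eluate in that order. Phosphoglycerate kinase Pgk1 and pyruvate kinase Pkm rose with the MeOH eluate, by 0.28 and 0.13, and measured 0.22 and 0.12 above DMSO with WS1442 (adjusted p = 0.097 and 0.0838). Hexokinases Hk1 and Hk2, Pfkl, Pfkm, Aldoc, Gapdh, Pgam1 and Eno1 passed the test with neither preparation at 6 h.

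Of the 6 transporters and flux regulators, 1 rose with WS1442 at 6 h and 3 with the MeOH eluate. Slc2a1, the glucose transporter GLUT1, measured 14.02 and 14.33 in DMSO, 14.60, 14.63 and 14.77 with WS1442, and 14.64, 14.63 and 14.76 with the MeOH eluate. All 6 treated samples lay above both controls, and the rise was 0.50 with each preparation (SE 0.07 for both, adjusted p = 0.00235 for WS1442 and 0.000387 for the MeOH eluate). Pfkfb3, which makes the activator of phosphofructokinase fructose 2,6-bisphosphate, measured 9.49 and 9.91 in DMSO and 10.50, 10.61 and 10.67 with the MeOH eluate, a rise of 0.89 (SE 0.13, adjusted p = 0.000267). Its WS1442 samples, at 9.93, 10.09 and 10.29, began just above the higher control, and that difference of 0.40 did not pass (adjusted p = 0.0794). The lactate exporter Slc16a3 rose by 0.43 with the MeOH eluate, and Pdk1, a kinase that shuts off pyruvate dehydrogenase, differed by 0.31 and 0.29 without passing. Slc2a3, the glucose transporter GLUT3, differed by -0.20 with WS1442 and -0.22 with the MeOH eluate. It did not pass, though all 6 treated samples lay below both controls.

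The other HIF targets gave the largest differences at 6 h, where 5 of 13 rose with WS1442 (class median 0.34) and 10 of 13 with the MeOH eluate (0.46). Bnip3, a receptor that marks mitochondria for autophagy, measured 10.20 and 10.86 in DMSO, 11.30, 11.51 and 11.65 with WS1442, and 11.94, 12.09 and 12.09 with the MeOH eluate. The 3 groups did not overlap, and the rises were 0.95 (SE 0.21, adjusted p = 0.0167) and 1.51 (SE 0.21, adjusted p = 0.000196). Its 2 controls differed by 0.66, the widest gap of any member between controls at 6 h. Bnip3l, a related mitophagy receptor, measured 11.72 and 11.93 in DMSO, 12.06, 12.11 and 12.33 with WS1442 and 12.31, 12.40 and 12.51 with the MeOH eluate, rises of 0.34 (SE 0.09, adjusted p = 0.0355) and 0.58 (SE 0.09, adjusted p = 0.000449).

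Adm, the precursor of the vasodilator peptide adrenomedullin, measured 6.53 and 7.11 in DMSO, 7.62, 7.80 and 8.04 with WS1442, and 8.03, 7.96 and 8.03 with the MeOH eluate. The treated groups overlapped each other and lay above both controls, with rises of 1.00 (SE 0.15, adjusted p = 0.00239) and 1.19 (SE 0.15, adjusted p = 0.000102). Ndrg1, a stress-responsive gene linked to growth arrest and differentiation, measured 9.42 and 9.78 in DMSO, 9.93, 10.07 and 10.21 with WS1442, and 10.76, 10.84 and 10.79 with the MeOH eluate. The 3 groups were again apart, with rises of 0.48 (SE 0.13, adjusted p = 0.0491) and 1.20 (SE 0.13, adjusted p = 2.58e-05). Bnip3, Eno2, Ndrg1 and Adm were the 4 members above 2-fold with the MeOH eluate at 6 h, and no member was past 2-fold in the other 3 comparisons with DMSO.

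Among the remaining HIF targets at 6 h, P4ha1, a catalytic subunit of collagen prolyl 4-hydroxylase, rose with both preparations, by 0.34 and 0.46. Another 5 rose with the MeOH eluate and did not pass with WS1442: Ankrd37 (0.62), the second collagen hydroxylase subunit P4ha2 (0.58), Egln1 (0.36), the endoplasmic reticulum oxidase Ero1l (0.35) and the mitochondrial membrane protein Higd1a (0.23). Their differences with WS1442 were 0.38, 0.32, 0.36, 0.21 and 0.13, with adjusted p from 0.0528 to 0.343. Egln3 differed by 0.40 and 0.45 (adjusted p = 0.135 and 0.0534), and the angiogenic growth factor Vegfa by -0.22 and -0.11 (adjusted p = 0.282 and 0.541). Hif1a itself differed from DMSO by -0.07 to 0.09 in all 4 comparisons, with adjusted p of at least 0.678, and its 95% intervals ran from -0.29 at the lowest to 0.30 at the highest.

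**Figure D2:**
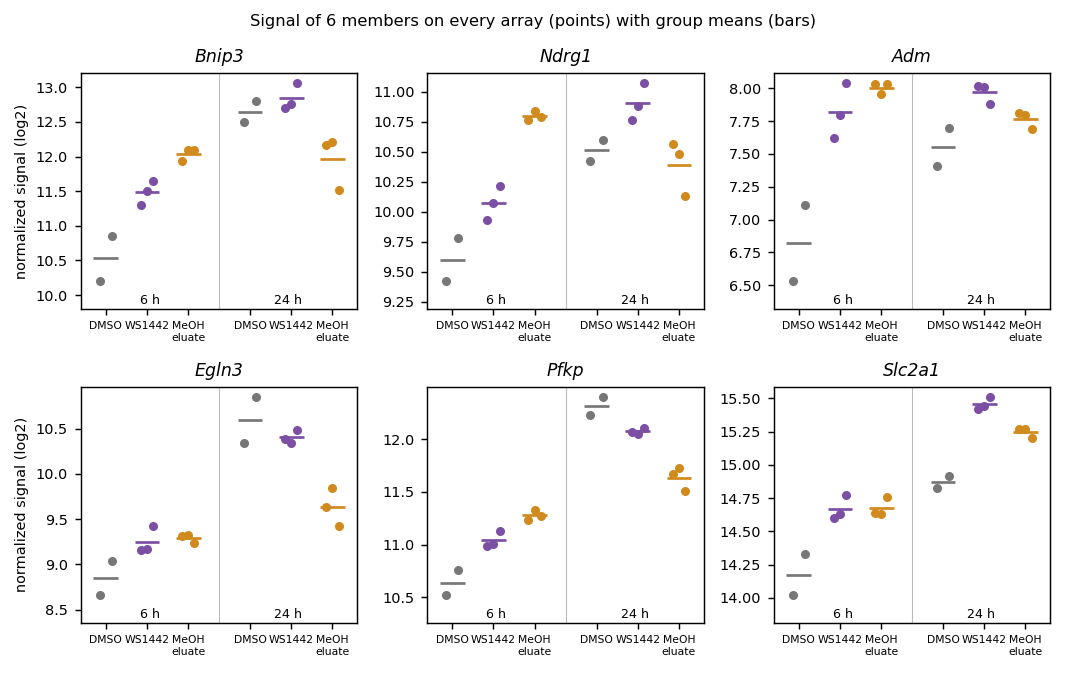
Log2 signal (vertical axis) of selected members on each of the 16 arrays, by group (horizontal axis, DMSO, WS1442 and MeOH eluate at 6 h and at 24 h), with the group mean as a bar. For Bnip3 the MeOH eluate samples are above both controls at 6 h (11.94 to 12.09 against 10.20 and 10.86) and below both at 24 h (11.52 to 12.21 against 12.50 and 12.80).

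The number of members that passed at 6 h depended on which sample was left out, DMSO or treated. Replicate 1 of DMSO was below replicate 2 in 30 of 36 members, by a median of 0.20, where over all genes it was below in 52.1% and the median was 0.01 below. Without DMSO 6 h replicate 1, 2 of the 11 calls with WS1442 remained (Slc2a1 and Adm), and 10 of the 21 with the MeOH eluate (Gpi1, Pfkp, Eno2, Ldha, Slc2a1, Pfkfb3, Bnip3, Bnip3l, Ndrg1 and Adm). Without DMSO 6 h replicate 2, 17 members passed with WS1442. Over all genes, fewer passed with either preparation when either DMSO 6 h sample was left out. Of the treated samples, leaving out WS1442 6 h replicate 2 gave a WS1442 count of 6, and leaving out its replicate 3 a count of 4. The WS1442 calls over all genes were then 1203 and 583, against 1634 with every sample. Slc2a1 and Adm for WS1442, and those 10 for the MeOH eluate, passed whichever sample was left out.

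After 24 h the direction had split. With WS1442, 8 of 36 members rose, against 12.9% of all genes, and 9 fell, against 11.9%. With the MeOH eluate, 2 rose, against 9.63% of all genes, and 14 fell, against 8.6%. The members that fell included collagen hydroxylases, HIF hydroxylases, Ero1l, Higd1a and a few glycolytic enzymes, while Slc2a1 and Pfkfb3 rose. The median difference over the 36 members was 0.01 with WS1442 and -0.15 with the MeOH eluate, beside 0.05 and 0.01 over all genes.

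The hydroxylase genes Egln1 and Egln3 fell with the MeOH eluate at 24 h. Egln1, the main HIF prolyl hydroxylase, measured 11.29 and 11.53 in DMSO, 11.02, 11.06 and 11.01 with WS1442, and 10.57, 10.70 and 10.39 with the MeOH eluate. The 3 groups did not overlap, and the falls were -0.38 (SE 0.10, adjusted p = 0.0137) and -0.86 (SE 0.10, adjusted p = 3.26e-05). At 6 h the same gene had measured 10.38 and 10.63 in DMSO, 10.74, 10.90 and 10.96 with WS1442, and 10.86, 10.98 and 10.77 with the MeOH eluate, all treated samples being above both controls. Egln3 measured 10.34 and 10.85 in DMSO at 24 h, 10.39, 10.34 and 10.49 with WS1442 and 9.64, 9.84 and 9.42 with the MeOH eluate. Its WS1442 samples lay between the controls (-0.19, adjusted p = 0.398), and the MeOH eluate samples lay below both (-0.96, SE 0.15, adjusted p = 0.000344). At 6 h its values were 8.66 and 9.04 in DMSO, 9.16, 9.17 and 9.42 with WS1442, and 9.31, 9.33 and 9.24 with the MeOH eluate.

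Ankrd37, a HIF target with ankyrin repeats, measured 8.13 and 7.98 in DMSO at 24 h, 7.67, 7.70 and 7.74 with WS1442, and 7.20, 7.37 and 6.97 with the MeOH eluate. Its 3 groups were apart, and the fall passed with the MeOH eluate (-0.87, SE 0.14, adjusted p = 0.000482) but not with WS1442 (-0.35, adjusted p = 0.0888). Its 6 h values were 6.91 and 7.36 in DMSO, 7.46, 7.39 and 7.69 with WS1442, and 7.66, 7.90 and 7.72 with the MeOH eluate, in which every treated sample was above the controls. P4ha2 measured 10.03 and 10.23 in DMSO at 24 h, 9.77, 9.86 and 9.74 with WS1442, and 9.53, 9.44 and 9.45 with the MeOH eluate, falls of -0.34 (SE 0.11, adjusted p = 0.0343) and -0.66 (SE 0.11, adjusted p = 0.000563). At 6 h it had been 8.97 and 9.31 in DMSO, 9.25, 9.50 and 9.63 with WS1442, and 9.64, 9.74 and 9.77 with the MeOH eluate. The WS1442 samples of P4ha2 overlapped the controls at 6 h and not at 24 h.

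P4ha1 fell at 24 h by -0.33 and -0.48, and Ero1l by -0.38 and -0.60, with WS1442 and the MeOH eluate in that order. Higd1a measured 13.39 and 13.36 in DMSO, 13.02, 13.04 and 13.01 with WS1442, and 12.96, 13.09 and 12.87 with the MeOH eluate, falls of -0.35 (SE 0.07, adjusted p = 0.00177) and -0.40 (SE 0.07, adjusted p = 0.000684). The treated groups overlapped each other and lay below both controls. At 6 h Higd1a was 12.76 and 12.95 in DMSO, 12.89 to 13.06 with WS1442, and 13.08, 13.14 and 13.04 with the MeOH eluate. Mxi1, an antagonist of the transcription factor Myc, measured 9.37 and 9.41 in DMSO at 24 h, 9.14, 9.11 and 9.20 with WS1442, and 8.88, 8.81 and 8.70 with the MeOH eluate. It fell with the MeOH eluate (-0.60, SE 0.11, adjusted p = 0.00111), and its WS1442 samples, also below both controls, did not pass (-0.24, adjusted p = 0.123). At 6 h Mxi1 was 8.17 and 8.55 in DMSO, 8.31 to 8.65 with WS1442 and 8.41 to 8.49 with the MeOH eluate, with all groups overlapping.

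Bnip3, Ndrg1 and Adm, which had risen more than 2-fold with the MeOH eluate at 6 h, took different courses, as did Bnip3l. Bnip3 measured 12.50 and 12.80 in DMSO at 24 h, 12.70, 12.76 and 13.06 with WS1442, and 12.17, 12.21 and 11.52 with the MeOH eluate. The WS1442 samples overlapped the controls (0.19, adjusted p = 0.553), and the MeOH eluate samples lay below them (-0.68, SE 0.21, adjusted p = 0.032), a call that was lost without DMSO 24 h replicate 1, DMSO 24 h replicate 2 or MeOH eluate 24 h replicate 3. Ndrg1 measured 10.42 and 10.60 in DMSO, 10.76, 10.88 and 11.07 with WS1442, and 10.56, 10.48 and 10.13 with the MeOH eluate. It rose with WS1442 (0.39, SE 0.13, adjusted p = 0.0429), and its MeOH eluate samples overlapped the controls (-0.12, adjusted p = 0.624). Bnip3l measured 12.69 and 12.78 in DMSO, 12.93, 12.98 and 13.09 with WS1442, and 12.79, 12.76 and 12.63 with the MeOH eluate. On this brightest probe the pattern was like that of Ndrg1, with a rise with WS1442 (0.26, SE 0.09, adjusted p = 0.0407) and -0.01 with the MeOH eluate. The other probe of Bnip3l was lower than DMSO with WS1442, so that its direction depended on the probe. Adm was 7.41 and 7.70 in DMSO, 8.02, 8.01 and 7.88 with WS1442 and 7.81, 7.80 and 7.69 with the MeOH eluate, and neither difference passed (0.41 and 0.21, adjusted p = 0.0604 and 0.416).

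In glycolysis at 24 h, 2 enzymes rose and 4 fell with WS1442, and none rose and 5 fell with the MeOH eluate. The shares over all genes were 12.9% and 11.9% with WS1442 and 9.63% and 8.6% with the MeOH eluate, so that the 2 rises of 16 were near the share of all genes. Pfkp measured 12.23 and 12.40 in DMSO, 12.07, 12.05 and 12.11 with WS1442, and 11.67, 11.73 and 11.51 with the MeOH eluate. The 3 groups did not overlap, and their order was the opposite of that at 6 h (-0.24, SE 0.08, adjusted p = 0.0398, and -0.68, SE 0.08, adjusted p = 2.87e-05). Hk2, the hexokinase among the HIF targets, measured 10.05 and 10.17 in DMSO, 9.98, 10.02 and 9.91 with WS1442, and 9.79, 9.82 and 9.71 with the MeOH eluate. It fell with the MeOH eluate (-0.33, SE 0.06, adjusted p = 0.00114) and missed the threshold with WS1442 (-0.14, adjusted p = 0.116). At 6 h it had been 9.97 and 10.10 in DMSO, 10.01 to 10.10 with WS1442 and 10.11 to 10.17 with the MeOH eluate.

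Pfkl, the liver-type phosphofructokinase, fell by -0.32 and -0.43 with WS1442 and the MeOH eluate, and the aldolase Aldoc by -0.45 and -0.55. Eno1 fell with WS1442 (-0.39), Ldha fell with the MeOH eluate (-0.20), and the muscle-type phosphofructokinase Pfkm rose with WS1442 (0.24). Pkm rose by 0.20 with WS1442 on its brightest probe (adjusted p = 0.00141), and its other 2 probes gave -0.10 and -0.78, so that its direction depended on the probe. On its brightest probe, Gpi1 measured 14.60 and 14.76 in DMSO, 14.68 to 14.77 with WS1442 and 14.56 to 14.70 with the MeOH eluate, with overlapping groups. Eno2 was 5.64 and 5.80 in DMSO, 5.86, 6.06 and 6.20 with WS1442, and 6.06, 5.94 and 6.20 with the MeOH eluate. All 6 treated samples of Eno2 lay above the controls, and neither difference passed (0.32 and 0.35, adjusted p = 0.151 and 0.148).

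The regulators of glucose entry and flux Slc2a1 and Pfkfb3 rose at 24 h with both preparations. Slc2a1 measured 14.83 and 14.92 in DMSO, 15.42, 15.44 and 15.51 with WS1442, and 15.27, 15.27 and 15.20 with the MeOH eluate. The groups did not overlap, and the rises were 0.58 (SE 0.07, adjusted p = 9.91e-05) and 0.37 (SE 0.07, adjusted p = 0.0025). Pfkfb3 measured 10.37 and 10.47 in DMSO, 11.07, 11.00 and 11.18 with WS1442, and 11.08, 11.09 and 10.78 with the MeOH eluate, rises of 0.66 (SE 0.13, adjusted p = 0.00168) and 0.57 (SE 0.13, adjusted p = 0.00543). These were the only 2 members that rose with the MeOH eluate at 24 h, and Slc2a1 was the only member that rose in all 4 comparisons with DMSO. Slc2a3 and Slc16a3 rose with WS1442 (0.43 and 0.35) and differed by 0.23 and -0.15 with the MeOH eluate. Pdk1 differed by -0.37 and -0.36 (adjusted p = 0.0577 and 0.0853), and Pfkfb4 passed in no comparison.

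The falls with the MeOH eluate were the steadier at 24 h. With it, 13 to 18 members passed as each sample was left out, and 11 of the 14 falls passed every time (Hk2, Pfkp, Aldoc, Egln1, Egln3, Ankrd37, P4ha1, P4ha2, Ero1l, Mxi1 and Higd1a). With WS1442 the 17 calls became 8 without DMSO 24 h replicate 2, 11 without DMSO 24 h replicate 1, 10 without WS1442 24 h replicate 1, and 9 with its replicate 3 left out. Pkm, Slc2a1, Slc2a3 and Pfkfb3 (higher) and Higd1a (lower) passed every time. With each array scaled to its 75th percentile instead, 5 members rose and 13 fell with WS1442, and 1 rose and 21 fell with the MeOH eluate.

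The change between the 2 time points was tested as the difference between a preparation's effect at 24 h and its effect at 6 h, which uses separate controls at each time. For the MeOH eluate, 22 of 36 members had a lower effect at 24 h, against 3.87% of all genes, and 1 a higher, against 3.92%. For WS1442, 9 had a lower effect, against 6.98%, and 1 a higher, against 5.75%. Bnip3 had the largest change of any member, -2.19 with the MeOH eluate (SE 0.29, adjusted p = 0.000253). Ankrd37 (-1.50), Egln3 (-1.41), Ndrg1 (-1.33), Pfkp (-1.32), P4ha2 (-1.24) and Egln1 (-1.23) followed, all by more than 2-fold. These are changes in the difference from DMSO, and the DMSO levels moved too. At 6 h and 24 h, mean Bnip3 was 12.04 and 11.97 with the MeOH eluate and 10.53 and 12.65 with DMSO. Mean Pfkp was 11.28 and 11.64 against 10.64 and 12.31, and mean Egln3 9.29 and 9.63 against 8.85 and 10.59. With the MeOH eluate, mean Ankrd37, Ndrg1, P4ha2 and Egln1 were lower at 24 h. Slide and time cannot be told apart in such levels. Slc2a3 was the member with a higher effect at 24 h for both preparations, by 0.63 with WS1442 and 0.45 with the MeOH eluate. Hk1, Pfkm, Gapdh, Pgam1, Eno1, Pkm, Slc2a1, Pfkfb3, Pfkfb4, Vegfa and Hif1a passed this comparison with neither preparation.

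**Figure D3:**
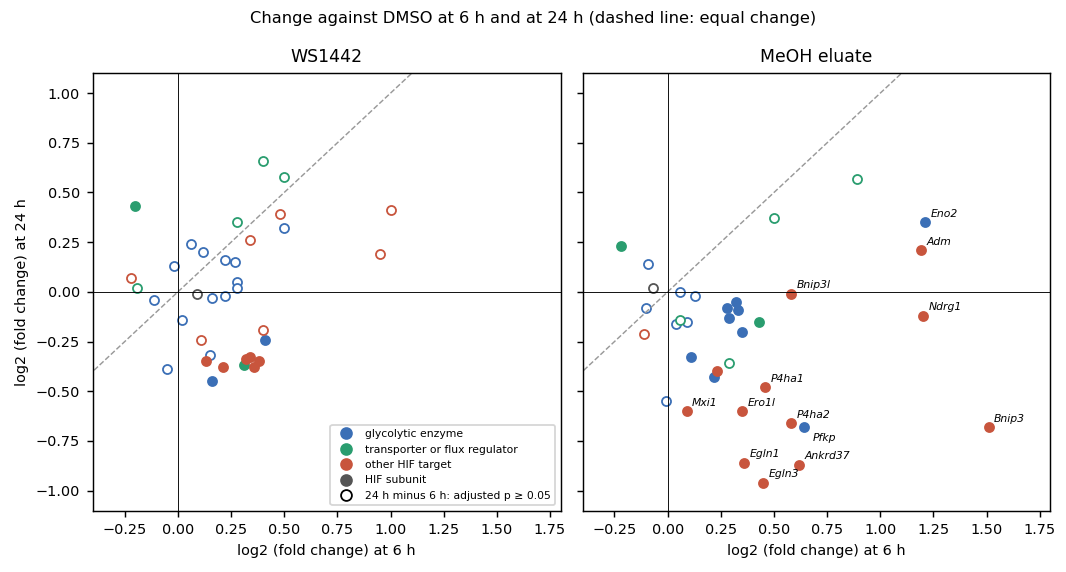
Log2 difference from DMSO at 6 h (horizontal axis) and at 24 h (vertical axis) for each tested member, by class, with 1 panel per preparation. Filled points are members whose difference changed between the times at an adjusted p under 0.05. With the MeOH eluate Bnip3, Ankrd37, P4ha2, Pfkp and Egln1 lie at the lower right, higher than DMSO at 6 h and lower than DMSO at 24 h.

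A set of 9 members passed in opposite directions with the MeOH eluate, higher than DMSO at 6 h and lower than DMSO at 24 h. They were Pfkp, Ldha, Bnip3, Egln1, Ankrd37, P4ha1, P4ha2, Ero1l and Higd1a. Pfkp and P4ha1 passed in this way with WS1442. For the MeOH eluate the 9 became 3 without DMSO 6 h replicate 1 (Pfkp, Ldha and Bnip3) and 5 without MeOH eluate 6 h replicate 2, and Pfkp was the only member in this set whichever sample was left out. For WS1442 the 2 became 0 without DMSO 6 h replicate 1, DMSO 24 h replicate 2, WS1442 24 h replicate 1 or WS1442 24 h replicate 3, and ranged from 0 to 4 over all samples left out. Over the other processing settings the set held 4 to 11 members with the MeOH eluate and 0 to 5 with WS1442, except that it held 0 with both under the methods' t-test. Slc2a1 and Pfkfb3 were higher at both times with the MeOH eluate, and Slc2a1, Bnip3l and Ndrg1 with WS1442. For Bnip3l at 24 h this held on its brightest probe only. As samples were left out in turn, the number of changed effects ran from 14 to 25 for the MeOH eluate, with 14 of its 22 lower effects passing each time, and from 5 to 16 for WS1442, with Slc2a3 and 4 lower effects passing each time. The count for the MeOH eluate was 14 without DMSO 6 h replicate 1. That for WS1442, 10 in all, was 5 without DMSO 6 h replicate 1, 16 without DMSO 6 h replicate 2, and 6 when either WS1442 6 h replicate 3 or WS1442 24 h replicate 3 was missing.

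The class medians of the other HIF targets lay further from 0 than those of the glycolytic enzymes at both times and with both preparations. With the MeOH eluate, the class median of the 16 glycolytic enzymes was 0.18 at 6 h and -0.11 at 24 h, and that of the 13 other HIF targets 0.46 and -0.60. With WS1442 the values were 0.16 and 0.00 for the enzymes and 0.34 and -0.24 for the other HIF targets. The 6 transporters and flux regulators had medians of 0.29 and 0.36 at 6 h, and 0.39 and 0.05 at 24 h, for WS1442 and the MeOH eluate. A lower effect at 24 h with the MeOH eluate was called for 9 of 16 enzymes and for 12 of 13 other HIF targets, Vegfa being the exception. These are descriptions of chosen genes, for which no test between the classes was made. With 75th percentile scaling, the medians at 24 h were -0.18 and -0.27 with WS1442 and -0.25 and -0.63 with the MeOH eluate, for the enzymes and the other HIF targets in that order.

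The class medians on single arrays showed the spread behind these numbers. Set against the mean of the 2 DMSO arrays of the same time, the median of the other HIF targets at 6 h was -0.17 and 0.17 on the DMSO arrays, 0.24, 0.32 and 0.49 on the WS1442 arrays, and 0.46, 0.49 and 0.55 on the MeOH eluate arrays. At 24 h it was -0.09 and 0.09, then -0.25, -0.26 and -0.19, then -0.48, -0.44 and -0.69. All treated arrays were therefore above the controls at 6 h and below them at 24 h, and the 2 preparations overlapped at 6 h and not at 24 h. For the glycolytic enzymes the medians at 6 h were -0.07 and 0.07 with DMSO, 0.11, 0.15 and 0.26 with WS1442, and 0.17, 0.23 and 0.14 with the MeOH eluate. At 24 h they were -0.05 and 0.05, then -0.01, -0.01 and 0.06, then -0.11, -0.07 and -0.18, so that WS1442 overlapped the controls. The medians of all genes stayed between -0.01 and 0.05.

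**Figure D4:**
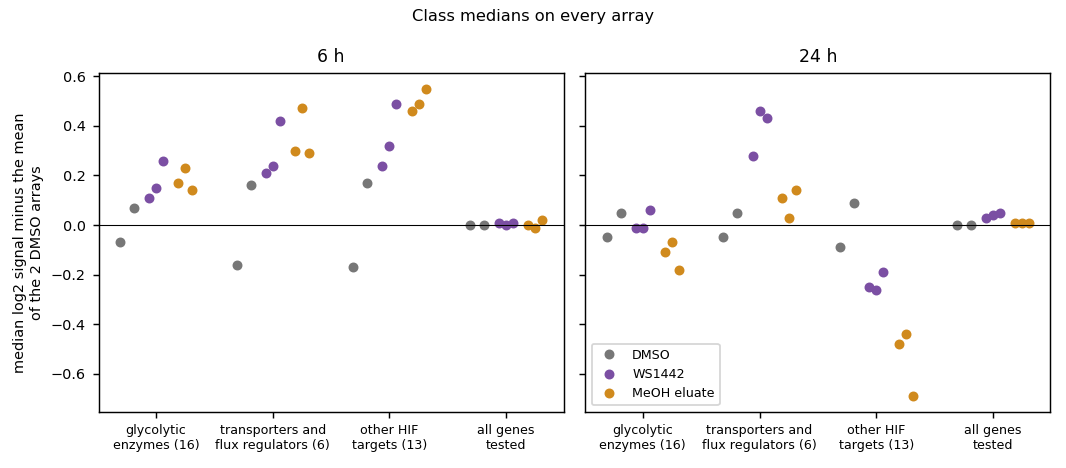
Median log2 signal of each class on each array, minus the mean of the 2 DMSO arrays of that time (vertical axis), at 6 h and 24 h, with 1 point per array. The other HIF targets of the MeOH eluate arrays sit at 0.46 to 0.55 at 6 h and at -0.69 to -0.44 at 24 h, and the medians of all genes near 0.

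The 2 DMSO samples of a time differed for these genes. At 6 h, replicate 1 was lower than replicate 2 in 12 of 13 other HIF targets (median difference -0.35), in 12 of 16 glycolytic enzymes (-0.14) and in 5 of 6 transporters and flux regulators (-0.32). Bnip3 (-0.66), Adm (-0.59), Pdk1 (-0.47), Ankrd37 (-0.45) and Pfkfb3 (-0.42) had the widest gaps. At 24 h, replicate 1 was lower in all 16 glycolytic enzymes (-0.10), in all 6 transporters and flux regulators (-0.10) and in 10 of 13 other HIF targets (-0.17), with Egln3 at -0.51. Over all genes the median difference was -0.01 at both times, and 51.9% of genes were lower in replicate 1 at 24 h. The median size of the gap, without its sign, was 0.20 for the members and 0.12 for all genes at 6 h. At 24 h it was 0.13 for the members and 0.14 for all genes, so that the members shared a direction there without a larger gap. Beyond -0.2 lay 52.8% of members and 15.5% of all genes at 6 h, and 22.2% and 22.9% at 24 h. The gaps between controls were not tested. The gap in Bnip3 at 6 h compares with its rises of 0.95 and 1.51, and that in Egln3 at 24 h with its fall of -0.96.

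**Figure D5:**
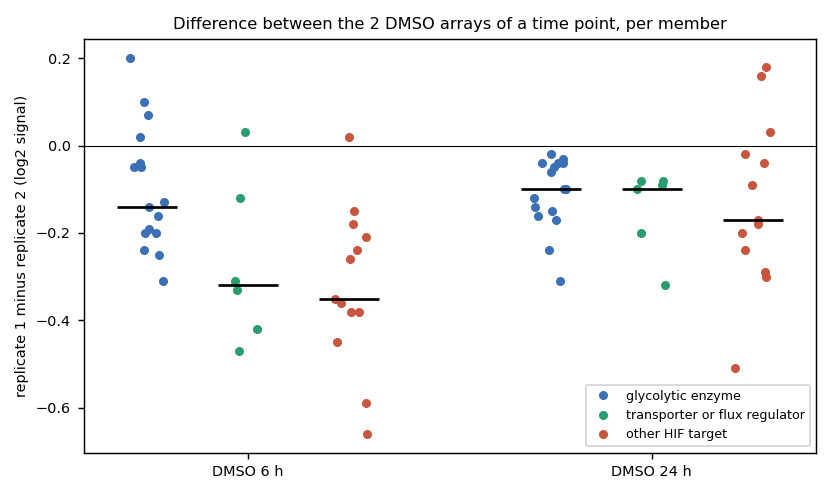
Difference in log2 signal between DMSO replicate 1 and replicate 2 (vertical axis) for each tested member of the 3 classes, at 6 h and 24 h, with the class median as a black bar. Most points lie below 0 at both times, with class medians from -0.35 to -0.14 at 6 h and from -0.17 to -0.10 at 24 h, and Bnip3 at 6 h lies lowest, at -0.66.

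The 2 preparations were also compared directly, at the doses used. At 6 h, 4 members were higher with the MeOH eluate than with WS1442, against 4.81% of all genes, and none was lower, against 7.34%. These 4 were Ndrg1 (0.73, SE 0.12, adjusted p = 0.00182), Eno2 (0.71, SE 0.14, adjusted p = 0.00616), Pfkfb3 (0.49, SE 0.11, adjusted p = 0.0144) and Pfkp (0.23, SE 0.07, adjusted p = 0.0439). Slc2a1 differed by 0.01 between the preparations at 6 h, with a 95% interval from -0.13 to 0.15, and Egln1 by 0.00, from -0.19 to 0.20. With the 75th percentile scaling, 3 members were higher and 1 lower at 6 h, and without MeOH eluate 6 h replicate 3 the count was 2.

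At 24 h, 15 members were lower with the MeOH eluate than with WS1442, against 7.18% of all genes, and none was higher, against 7.44%. They were 6 glycolytic enzymes, the lactate exporter Slc16a3 and 8 other HIF targets. Bnip3 differed by -0.87 (SE 0.18, adjusted p = 0.006), Egln3 by -0.77 (SE 0.13, adjusted p = 0.00174), Ankrd37 by -0.52, Ndrg1 by -0.51, Slc16a3 by -0.50, Egln1 by -0.48, Pfkp by -0.44 and Ldha by -0.35. The other 7 were Hk2, Pfkm, Pgk1, Pkm, Bnip3l, P4ha2 and Mxi1, at -0.36 to -0.20. For Higd1a the difference was -0.05, with a 95% interval from -0.18 to 0.08, and for Pfkfb3 -0.10, from -0.34 to 0.15. The count at 24 h was 9 without WS1442 24 h replicate 3 and 8 without MeOH eluate 24 h replicate 3.

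The other probes of a member did not always follow its brightest one. Of the 36 members, 16 had more than 1 probe kept. At 6 h Tpi1, called higher with both preparations, had a dim probe at -0.41 and -0.57, and Gpi1 had another probe at 0.00 with the MeOH eluate. At 24 h with WS1442, Aldoc had another probe at 0.07 and Bnip3l one at -0.24, against calls in the other direction. Pkm, called higher with the MeOH eluate at 6 h, had a dim probe at -0.08. The second probe of Pdk1 gave 0.10 and 0.18 at 6 h and 0.53 and 0.31 at 24 h, where its brightest gave -0.37 and -0.36 at 24 h. All other probes of members called with the MeOH eluate at 24 h had the sign of the call. Members without a call at 24 h also had probes that departed from the brightest. Gpi1, at 0.05 and -0.05, had others at -0.47 and -0.37 with WS1442 and at -0.44 and -0.31 with the MeOH eluate. For WS1442 and the MeOH eluate, another probe gave 0.52 and 0.13 for Hk1, -0.32 and -0.26 for Tpi1, and 0.32 and 0.09 for Pfkfb4. That probe of Pfkfb4 gave 0.34 and 0.23 at 6 h. The 3 probes of Pfkp and the 2 of Ankrd37 had the same sign as each other in every comparison. The brightest probe of Eno1 also matches Eno1b, and its other probe gave 0.32 and 0.65 at 6 h, and -0.29 and -0.44 at 24 h, where the brightest gave -0.05, 0.04, -0.39 and -0.16.

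The promoters of the members, whether or not they moved, can be read beside these values. RefSeq windows of 300 bases, from 250 before to 50 after each start on the build GRCm38.p6, were matched for 34 of the 37 members, and Bnip3l, Ndrg1 and Slc2a3 were the other 3. The HIF-binding core was searched as ACGTG and GCGTG on either strand. At least 1 window held it in 31 of the 34 (91.2%), and in 46.7% of 27025 genes with a window, and 80% of the members' 50 windows held it, against 43.8% of all 32851. All 12 other HIF targets with a window held it, as did all 5 transporters and flux regulators and 13 of 16 glycolytic enzymes. Gpi1, Tpi1 and Eno2 had none in these windows, and each rose in at least 1 comparison. A match in these letters is a description of the sequence and not a binding site. The members were chosen by name as HIF targets and glycolysis genes. Their higher share of cores can come with that choice and is not a result of these arrays.

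The 250 bases before the start are shown for 5 members with large values, read 5′ to 3′ on the strand of the gene, with the core on either strand in capitals (CACGT and CACGC are the cores read on the other strand). Bnip3, with the largest change between the times, held 5 cores, 2 of them overlapping in CACGTG. Ankrd37 held 4, 2 of which overlap in CACGCGTG, Pfkp 3, Adm 2 and Egln3 1.
Bnip3, chr7:138909507-138909756, minus strand: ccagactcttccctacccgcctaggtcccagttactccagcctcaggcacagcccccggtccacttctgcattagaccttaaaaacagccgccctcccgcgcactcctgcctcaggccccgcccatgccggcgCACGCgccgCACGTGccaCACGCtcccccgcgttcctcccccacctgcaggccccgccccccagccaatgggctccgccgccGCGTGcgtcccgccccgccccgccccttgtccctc
Ankrd37, chr8:45999851-46000100, minus strand: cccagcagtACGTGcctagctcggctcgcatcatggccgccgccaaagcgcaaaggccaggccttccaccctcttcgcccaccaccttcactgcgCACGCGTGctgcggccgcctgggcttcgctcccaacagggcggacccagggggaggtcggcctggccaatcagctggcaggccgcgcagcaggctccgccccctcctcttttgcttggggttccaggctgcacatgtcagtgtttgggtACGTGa
Pfkp, chr13:6648772-6649021, minus strand: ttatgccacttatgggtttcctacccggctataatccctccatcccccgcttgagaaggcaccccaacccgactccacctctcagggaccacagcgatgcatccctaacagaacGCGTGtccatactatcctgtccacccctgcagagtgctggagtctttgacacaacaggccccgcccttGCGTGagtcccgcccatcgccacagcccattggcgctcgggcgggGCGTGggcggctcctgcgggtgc
Adm, chr7:110627407-110627656, plus strand: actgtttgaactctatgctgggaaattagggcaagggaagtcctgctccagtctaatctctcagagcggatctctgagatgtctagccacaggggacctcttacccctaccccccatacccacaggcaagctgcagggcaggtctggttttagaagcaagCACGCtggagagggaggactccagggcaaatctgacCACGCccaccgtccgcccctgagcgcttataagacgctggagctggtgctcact
Egln3, chr12:54203875-54204124, minus strand: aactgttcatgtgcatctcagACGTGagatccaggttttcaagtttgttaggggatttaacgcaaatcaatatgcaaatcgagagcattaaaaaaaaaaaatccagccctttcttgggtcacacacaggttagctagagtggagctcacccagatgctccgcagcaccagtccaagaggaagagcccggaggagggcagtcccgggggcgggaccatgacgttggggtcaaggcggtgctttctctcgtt
The number of cores did not order these 5 by their values: Adm, with 2, rose by 1.19 with the MeOH eluate at 6 h, and Ankrd37, with 4, by 0.62.

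Genes next to these in metabolism and in the hypoxia response were looked at for comparison. Over all genes tested, the shares that rose and fell were 4.14% and 1.45% with WS1442 at 6 h, 8.7% and 8.39% with the MeOH eluate at 6 h, 12.9% and 11.9% with WS1442 at 24 h, and 9.63% and 8.6% with the MeOH eluate at 24 h. The counts of these lists, and of the markers after them, are to be read against those shares. Of 40 further hypoxia-inducible genes, 12 rose and none fell at 6 h with WS1442, 16 rose and 4 fell at 6 h with the MeOH eluate, 9 rose and 8 fell at 24 h with WS1442, and 9 rose and 12 fell at 24 h with the MeOH eluate. Bhlhe40 and Bhlhe41, clock-related repressors, rose in all 4 comparisons, Bhlhe40 by 0.21, 0.72, 0.87 and 1.06, and Bhlhe41 by 1.08, 1.89, 0.96 and 1.21, in the same order. Of 16 regulators of the HIF pathway, 2 rose in each 6 h comparison, and 1 fell with the MeOH eluate. At 24 h, 5 rose and none fell with WS1442, and 3 rose and 1 fell with the MeOH eluate. Cited2, an inhibitor of HIF that competes for its coactivator, rose at 24 h by 0.54 and 0.61.

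Of 23 enzymes of pyruvate oxidation and the tricarboxylic acid cycle, 2 rose at 6 h with WS1442 and none with the MeOH eluate, and 0 and 4 fell. At 24 h, 3 rose and 5 fell with WS1442, and 1 rose and 4 fell with the MeOH eluate. The pyruvate dehydrogenase kinase Pdk2 fell at 24 h by -0.65 and -0.60. Of 8 pentose phosphate enzymes, 2 rose and none fell at 6 h with WS1442, and 1 or 2 passed in each direction in the other comparisons. Of 16 other isoforms of glycolytic enzymes and lactate transporters, 1 rose at 6 h with WS1442 and 3 with the MeOH eluate, and none fell. At 24 h, 2 and 3 rose and 5 and 4 fell, among the latter the lactate transporter Slc16a1 (-0.82 and -1.04). Of 5 genes of gluconeogenesis, none rose, 0 and 1 fell at 6 h and 2 and 2 at 24 h, and the mitochondrial phosphoenolpyruvate carboxykinase Pck2 fell at 24 h by -0.78 and -1.28.

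Markers of the cells these cultures can hold also moved. Of 8 primitive streak and mesoderm markers, 3 and 4 fell at 6 h, and 3 and 4 at 24 h, with WS1442 and the MeOH eluate, and none rose. Their summed log2 signal was 12.38 to 12.39 with DMSO at 6 h, 11.84 to 11.98 with WS1442 and 11.25 to 11.31 with the MeOH eluate, and at 24 h 12.12 to 12.15, 11.77 to 11.84 and 11.40 to 11.53. The summed signal of 6 endoderm markers was 11.12 to 11.17, 10.75 to 10.89 and 10.39 to 10.57 at 6 h, and 11.64 to 11.72, 11.36 to 11.56 and 10.69 to 11.00 at 24 h. Of 7 cardiac markers, 1 and 2 rose at 6 h and 3 and 3 fell at 24 h, with WS1442 and the MeOH eluate in that order. Their summed signal at 6 h was 14.43 to 14.57 with DMSO, 14.17 to 14.37 with WS1442 and 14.21 to 14.35 with the MeOH eluate, below the controls, and at 24 h it was 13.89 to 13.90, 13.70 to 13.98 and 13.72 to 13.90, overlapping them. Of 7 neuroectoderm markers, 1 and 3 fell at 6 h and 0 and 1 rose, with sums of 14.20 to 14.29 with DMSO, 14.10 to 14.13 with WS1442 and 13.75 to 13.86 with the MeOH eluate. At 24 h, 3 and 2 of them rose and 1 and 2 fell, and the sums were 14.66 to 14.72, 14.37 to 14.46 and 14.33 to 14.49, with all treated samples below the controls. Of 8 pluripotency markers, 1 and 3 fell at 6 h and 3 and 1 at 24 h, and none rose. Their summed signal at 6 h was 14.70 to 14.76 with DMSO, 14.65 to 14.66 with WS1442 and 14.59 to 14.64 with the MeOH eluate, below the controls. At 24 h it was 13.99 to 14.06 with DMSO, 13.86 to 13.95 with WS1442, below the controls, and 13.96 to 14.11 with the MeOH eluate, overlapping them. Endothelial and erythroid sums of the treated samples overlapped the controls at 6 h with WS1442 and at 24 h with both preparations, and with the MeOH eluate at 6 h were 9.22 to 9.34 against 8.94 to 9.20, and 10.30 to 10.53 against 10.08 to 10.18. The part of these markers in the changes of the hypoxia and glycolysis genes was not tested.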

How the data were processed

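RNA of 16 samples was hybridised by the authors, through OakLabs, to one-colour Agilent ArrayXS mouse arrays after Cy3 labelling. The deposited values are spot intensities: the processed signal of each scanner file, which Agilent Feature Extraction had background-subtracted and detrended per the file headers, and the authors' table of intensities after quantile normalization, used as an alternative. No value column belonged to other samples.

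Here log2 of the processed signal, as deposited by the authors, was quantile-normalized over the 16 arrays. Control spots and outlier spots were left out and spots of a probe averaged. A probe stayed in when some group had it well above background on all of its arrays (36729 probes), and the brightest stood for its gene. Names came from RefSeq accessions where listed, otherwise from the files, and 15116 of 60273 probes had none. Linear models of 6 group means with moderated variances (limma 3.58.1, R 4.3.3; 10 residual degrees of freedom) gave differences and Benjamini-Hochberg adjusted p-values over 29233 genes, called at 0.05. The number of arrays limits the precision. Replicates were compared with each other, and the fit was tested on simulated data. The members, lists and tests were chosen with earlier results of these data known. Values on every array are given for the 16 members with the smallest adjusted p in a comparison with DMSO, and sequences for 5 members. Tried alternatives were other background corrections, scalings, filters, probe summaries and models, slide row and replicate blocks, the methods' t-test, and leaving out each sample.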

Additional observations from a re-analysis of the deposited data

Results flagged for a closer look

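The effect of a preparation differed between 6 h and 24 h, by a test of that difference with limma's adjusted p under 0.05, for the members below. Values are the log2 difference from DMSO at 24 h minus that at 6 h. For WS1442 they were -0.64 for Pfkp, -0.61 for Aldoc, 0.63 for Slc2a3, -0.68 for Pdk1, -0.74 for Egln1, -0.73 for Ankrd37, -0.67 for P4ha1, -0.66 for P4ha2, -0.59 for Ero1l and -0.48 for Higd1a. The direction for Pdk1 depended on the probe, as its second probe differed from DMSO by 0.10 at 6 h and 0.53 at 24 h.

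For the MeOH eluate, the glycolytic enzymes concerned were Hk2 (-0.44), Gpi1 (-0.37), Pfkl (-0.65), Pfkp (-1.32), Aldoa (-0.42), Tpi1 (-0.42), Pgk1 (-0.36), Eno2 (-0.86) and Ldha (-0.54). The transporters were Slc2a3 (0.45) and Slc16a3 (-0.58). The other HIF targets were Bnip3 (-2.19), Bnip3l (-0.59), Egln1 (-1.23), Egln3 (-1.41), Ndrg1 (-1.33), Ankrd37 (-1.50), Adm (-0.98), P4ha1 (-0.94), P4ha2 (-1.24), Ero1l (-0.95), Mxi1 (-0.68) and Higd1a (-0.63). Each time point was on a slide of its own and had its own 2 controls. No group was large enough for a search for single outlying samples.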

How the results depend on the processing

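Direction was kept under every alternative run, for every call of a member against DMSO or between the times, except Pkm at 24 h with WS1442, which was -0.02 with 75th percentile scaling and -0.22 with the mean over probes. For WS1442 at 6 h, 11 members passed, and 5 without the background filter, without a variance trend or with each time point alone, 7 with the mean over probes or a slide row block, and 4 with the replicate block. For WS1442 at 24 h, 17 passed, and 10 without the filter, and 11 without a trend or with array weights. For the WS1442 change from 6 h to 24 h, 10 passed, and 18 with 75th percentile scaling and 6 with the replicate block. Correlations of same-numbered samples ran from -0.235 to 0.305, and 0.305, of WS1442 and MeOH eluate 6 h replicate 1, was the highest of any pair. The deviations of 2 DMSO samples from their mean mirror each other, so these correlations could not exclude pairing. With the replicate block 13, 19 and 14 members passed for WS1442 at 24 h and the MeOH eluate at 6 h and 24 h. Above 2-fold with unadjusted p under 0.05 were 4 members for the MeOH eluate at 6 h, 7 for its change from 6 h to 24 h, and 0 in the other 6 comparisons. The methods' t-test at the study's threshold gave the same 4 and otherwise 0. After Benjamini-Hochberg it gave 0 in all 6 comparisons within a time, with 9, 19, 19, 18, 9 and 18 members at unadjusted p under 0.05 (WS1442 and MeOH eluate at 6 h, then at 24 h, then between them at 6 h and 24 h). Its smallest adjusted p for a member was 0.0504. The glycolytic median became 0.22 (WS1442, 6 h), -0.18 (WS1442, 24 h) and -0.25 (MeOH eluate, 24 h) with 75th percentile scaling. With the mean over probes it was -0.06 and -0.18 at 24 h, and the control gap of these enzymes at 6 h was -0.08. That scaling also changed the share of calls that were higher over all genes, from 74.1% to 85.0% (WS1442, 6 h), 52.0% to 40.2% (WS1442, 24 h), 52.8% to 42.8% (MeOH eluate, 24 h), 39.6% to 20.6% (between preparations, 6 h) and 45.2% to 28.0% (WS1442 change). Leaving out 1 sample at a time gave 2 to 17 members for WS1442 at 6 h, 10 to 22 for the MeOH eluate at 6 h, 8 to 19 for WS1442 at 24 h, 2 to 5 and 8 to 16 between the preparations at 6 h and 24 h, 5 to 16 for the WS1442 change and 14 to 25 for the MeOH eluate change. Glycolytic medians then ran from 0.10 to 0.27 and 0.10 to 0.26 at 6 h (WS1442, MeOH eluate) and from -0.15 to -0.04 at 24 h (MeOH eluate), and those of the other HIF targets from 0.21 to 0.48, 0.33 to 0.64 and -0.64 to -0.46. The causes of these shifts were not tested. With 2 controls a time the precision is limited.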

Other observations

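The DMSO samples themselves measured higher at 24 h than at 6 h in 32 of 36 members, by a median of 0.73 on the log2 scale, where the median over all genes was -0.02. The medians were 0.64 for the glycolytic enzymes, 0.63 for the transporters and flux regulators and 0.92 for the other HIF targets, of which all 13 were higher. Bnip3 (2.12), Egln3 (1.75), Pfkp (1.68) and Pdk1 (1.23) had the largest such differences, and Hk1 (-0.39), Pfkfb4 (-0.32), Gapdh (-0.28) and Hif1a (-0.12) were lower at 24 h. Each time point was hybridised on a slide of its own, so the time and the slide cannot be told apart.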
